A study of Mus musculus with 4 samples.

Results

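Alpha-class glutathione S-transferases are represented here by 4 genes, Gsta1, Gsta2, Gsta3 and Gsta4. The regions described are all peaks in the deposited MafG peak list whose midpoint lies inside or within 50 kb of one of these genes, with a peak shared by neighbouring genes counted once. There were 24 such peaks of 68763 in the whole list. The 4 genes stand among 21887 protein-coding genes of the RefSeq table for assembly GRCm38.p6, which is the mm10 assembly.

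The series holds 4 chromatin immunoprecipitation sequencing libraries of formaldehyde-fixed livers from C57BL6/J mice. In 2 libraries the livers carried MafG with the BLRP peptide tag (treatment label Ad BLRP MAFG), and in the other 2 they carried the BLRP control (treatment label Ad BLRP Control). All 4 were precipitated with the same antibody against the tag. Age, sex and genotype are not given in the labels used here. The tagged protein was overexpressed and whole liver was used, so neither native MafG nor a single liver cell type was isolated. The deposited result is 1 peak list called on 1 BLRP-MafG collection of tags over 1 control collection. It gives no value per library, so no difference between animals could be tested, and each interval below is an exact 95% interval of tag counting alone. Heights are normalized tag counts, that is BLRP-MafG tags per 10000000 tags. The BLRP-MafG collection held 20406492 tags, and the deposited ratios imply about 1.72e+07 control tags. Over the whole list the median height was 12.3, with quartiles of 7.84 and 23.5.

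Glutathione S-transferases join glutathione to electrophilic compounds, and the alpha class is abundant in the cytosol of hepatocytes. MafG belongs to the small MAF proteins, which lack a transactivation domain of their own and bind DNA as pairs with CNC partners such as NRF2 at antioxidant response elements. Elements of that kind were characterised in the upstream regions of rodent alpha-class genes, and these genes are widely used as readouts of NRF2 activity in liver. In mouse, Gsta1 and Gsta2 encode close relatives that are induced by electrophiles, Gsta3 encodes the enzyme known for detoxifying the aflatoxin epoxide, and Gsta4 encodes the enzyme known for conjugating lipid peroxidation products such as hydroxynonenal.

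The genes lie at 2 places. Gsta3 (gene ID 14859) occupies chr1:21240565-21265575 on the plus strand. On chromosome 9, Gsta4 (gene ID 14860) occupies chr9:78191966-78209349, Gsta1 (gene ID 14857) chr9:78230669-78242683 on the plus strand and Gsta2 (gene ID 14858) chr9:78331018-78347192 on the minus strand. Between Gsta1 and Gsta2 stand the protein-coding genes Gm3776 at chr9:78257129-78269166 and Gm10639 at chr9:78289928-78305525, both on the plus strand. Exons, introns and untranslated regions were not separated here, so a peak is placed only inside or outside a gene and by its distance to a gene end or start site.

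RefSeq promoter windows of GRCm38.p6, each 300 bases from 250 before to 50 after the start site, were matched for 3 of the 4 genes (Gsta1, Gsta2 and Gsta3) and also for Gm3776 and Gm10639. The windows of Gsta1, Gm3776 and Gsta2 are shown because they set out how alike the copies on chromosome 9 are over this stretch. Capitals mark aligned bases that differ from Gsta1. The window of Gsta3 is shown because it holds the one motif match, which is in capitals.
Gsta1 (chr9:78230419-78230718, plus strand): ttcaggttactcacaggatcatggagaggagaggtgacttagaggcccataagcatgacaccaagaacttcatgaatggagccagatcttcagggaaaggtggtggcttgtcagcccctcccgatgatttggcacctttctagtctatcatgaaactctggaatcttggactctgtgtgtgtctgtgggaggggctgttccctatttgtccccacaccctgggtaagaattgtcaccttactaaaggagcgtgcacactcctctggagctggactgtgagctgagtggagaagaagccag
Gm3776 (chr9:78256879-78257178, plus strand): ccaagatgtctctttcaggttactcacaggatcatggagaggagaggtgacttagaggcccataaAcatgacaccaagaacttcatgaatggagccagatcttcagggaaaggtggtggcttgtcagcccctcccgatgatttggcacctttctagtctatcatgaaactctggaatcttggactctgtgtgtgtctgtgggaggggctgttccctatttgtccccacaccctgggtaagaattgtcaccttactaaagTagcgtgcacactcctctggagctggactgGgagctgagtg
Gsta2 (chr9:78347096-78347395, minus strand): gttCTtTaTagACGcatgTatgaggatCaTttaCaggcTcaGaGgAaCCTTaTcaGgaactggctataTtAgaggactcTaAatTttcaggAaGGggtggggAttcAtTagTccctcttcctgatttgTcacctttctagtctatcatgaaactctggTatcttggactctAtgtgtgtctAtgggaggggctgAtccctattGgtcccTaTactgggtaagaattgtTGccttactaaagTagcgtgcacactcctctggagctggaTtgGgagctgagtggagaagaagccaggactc
Gsta3 (chr1:21240335-21240634, plus strand): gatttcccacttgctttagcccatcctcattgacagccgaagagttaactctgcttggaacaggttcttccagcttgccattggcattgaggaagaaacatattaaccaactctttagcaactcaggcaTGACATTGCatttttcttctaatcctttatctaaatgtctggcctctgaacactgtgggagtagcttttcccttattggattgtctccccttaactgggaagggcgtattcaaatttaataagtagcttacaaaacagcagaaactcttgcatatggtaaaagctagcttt

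The Gm3776 window matched Gsta1 at 284 of 287 aligned bases (99%, gaps not counted), and the Gm10639 window matched Gsta1 at 280 of 285 (98.2%). Gsta2 matched Gsta1 at 238 of 284 aligned bases (83.8%). Read mapping can split or discard reads between such near-identical copies, and how reads with several matches were treated is not given in the sources used here. Heights near Gsta1, Gm3776 and Gm10639 are uncertain for this reason. So are the presence of a peak at each of these genes and the counts of peaks around them. Likeness was measured only within the windows and not at the peaks, so the extent is not known. The motifs below were searched on both strands. The antioxidant response core TGACNNNGC occurred in 12.4% of all 32851 promoter windows, the AP-1 core TGACTCA in 5.2%, and the MAF motif TGCTGA in 19.5%. A TGACTCA followed by GC matches the first motif as well. Among the 3 members with a window, the antioxidant response core was found in Gsta3, as TGACATTGC beginning 121 bases before the start site, and the other 2 motifs in none. No listed peak overlapped any of the 5 windows. The windows begin 250 bases before the start site. The nearest upstream peaks of Gsta1, Gm3776 and Gm10639 were centred 651 to 812 bp before it, outside the stretch searched. A motif match is a description of the sequence, and the peaks' own sequences were not analysed here.

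Each of the 4 genes had a listed peak within 50 kb, as did 93.5% of protein-coding genes, so having one says little about them. What varied was height and position. Gsta3 had a single tall peak of 184 tags per 10000000 near its downstream end, whereas no peak around Gsta1, Gsta2 or Gsta4 was above 29.9. Over the 24 peaks the median height was 13.2, against 12.3 over the whole list, and 13 of them were above the whole-list median. In 11 of the 24 peaks the control held 0 tags, against 44.4% of all listed peaks. By the authors' deposited table, 14 of the 24 reached a fold over control of 20, against 64.3% of all listed peaks. In 10 of these 14 the control held 0 tags, which that fold counts as 0.5. Against a floor of 3 control tags the ratios of these 10 ran from 3.37 to 13.2. Every listed peak had to exceed control at least 10-fold and its surroundings at least 4-fold, so the excess itself is a property of the list.

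**Figure D1:**
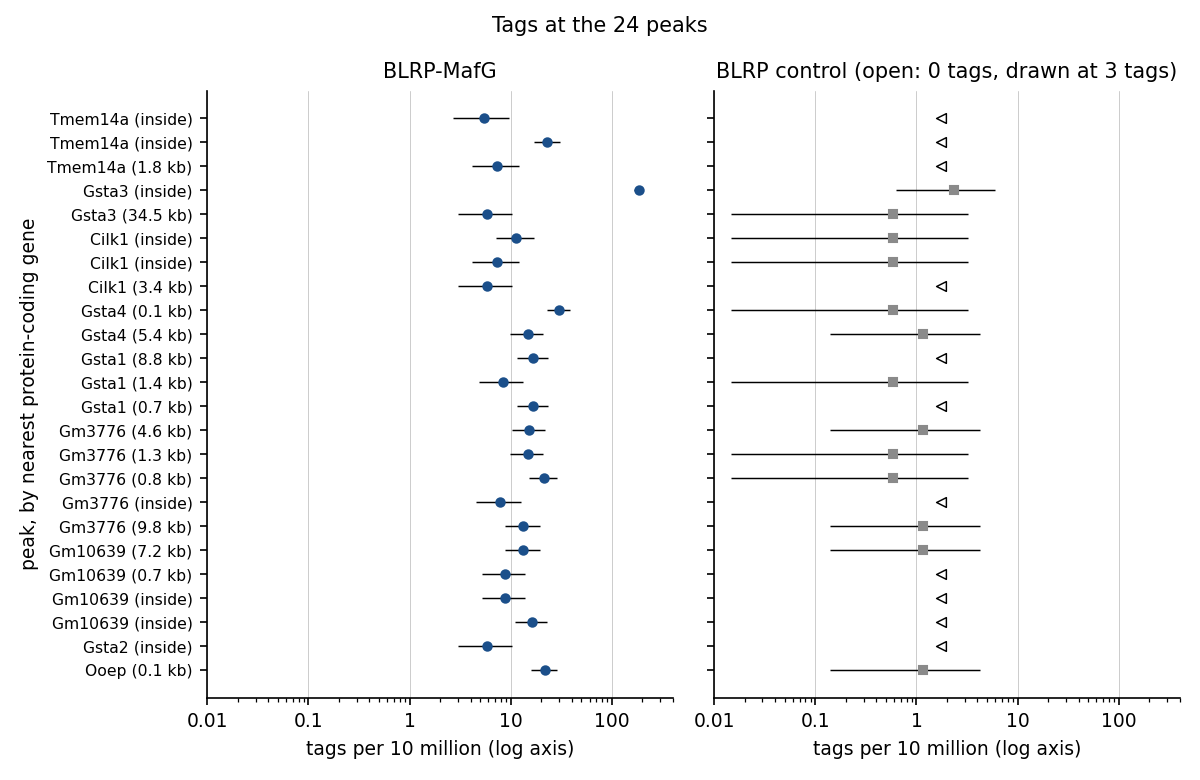
Tags per 10000000 on a log axis at each of the 24 peaks in the BLRP-MafG collection (left, circles) and the BLRP control collection (right, squares), with exact 95% counting intervals. Rows run along chromosome 1 and then chromosome 9 and are named by the nearest protein-coding gene with the distance to it. Open triangles stand for 0 control tags and are drawn at the limit of 3 tags. Gsta3 has the tallest BLRP-MafG value, 184 tags per 10000000, while the control never exceeds 2.32 tags per 10000000 (4 tags before scaling).

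At Gsta3, the tall peak lay inside the gene at chr1:21264805-21265005. Its midpoint was 24320 bp downstream of the start site and 670 bp short of the downstream end. BLRP-MafG gave 375 tags, a height of 184 (166 to 203), against 4 control tags. The ratio to control was 79.1 (30.6 to 292), and in the authors' deposited table the fold over the surrounding 10 kb was 140. Only 873 of the 68763 listed peaks (1.27%) were at least as high. The long noncoding RNA gene Gm28836 also spans this position, so the peak cannot be given to Gsta3 alone.

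The other 4 peaks within 50 kb of Gsta3 were much lower. One of 23 (16.9 to 30.6) lay 11314 bp upstream of the start site at chr1:21229171-21229371, with 47 BLRP-MafG tags and 0 control tags. It lay inside the neighbouring gene Tmem14a and also inside Gm28836. Against a floor of 3 control tags its ratio was 13.2, with an exact lower limit of 10.3. Peaks of 7.35 (4.11 to 12.1) and 5.39 (2.69 to 9.65) lay 8636 and 37360 bp upstream, both with 0 control tags. The peak of 5.39 lay inside Tmem14a. That of 7.35 lay inside Gm28836 and 1782 bp from Tmem14a, its nearest protein-coding gene. The last, of 5.88 (3.04 to 10.3) with 1 control tag, lay 34474 bp beyond the downstream end. These 3 low peaks rest on 11 to 15 tags each. The start site itself fell in a stretch of 32956 bp between the peak 8636 bp upstream and the tall one 24320 bp downstream, so the window with the antioxidant response core held no listed peak.

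**Figure D2:**
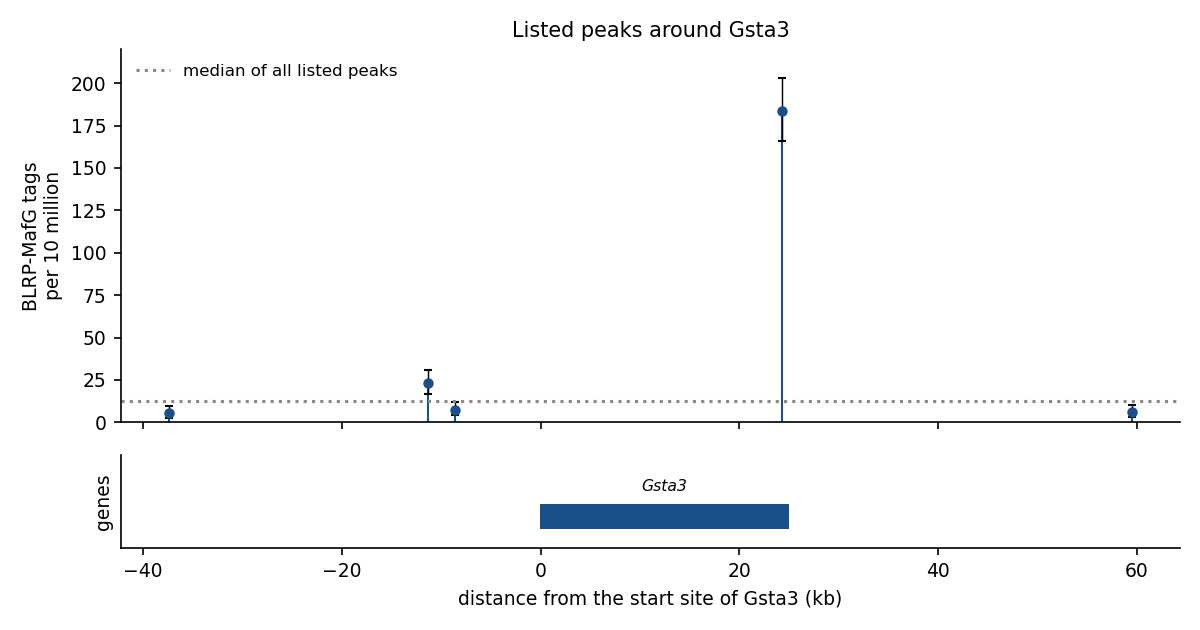
Height of each listed peak in BLRP-MafG tags per 10000000 (points with exact 95% counting intervals) against the distance from the Gsta3 start site in kb, with the gene drawn as a bar. The peak of 184 stands at the downstream end of the gene and the other 4 peaks are at 23 or lower.

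At Gsta1, the peaks closest to the gene lay just upstream of its start site. The nearest, at chr9:78229820-78230020, was centred 749 bp upstream and had a height of 16.7 (11.5 to 23.3), from 34 BLRP-MafG tags against 0 control tags. Its ratio was 9.56 against the floor of 3 control tags, with an exact lower limit of 7.36. A lower peak of 8.33 (4.85 to 13.3) was centred 1376 bp upstream at chr9:78229193-78229393, from 17 BLRP-MafG tags against 1 control tag. Its ratio was 14.3 (2.25 to 599), or 4.78 against the floor. Another, of 16.7 (11.5 to 23.3) with 0 control tags, lay 8757 bp upstream. No peak was listed inside Gsta1, and the height of these peaks was ordinary, since 37.1% of all listed peaks reached at least 16.7.

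The neighbouring copies Gm3776 and Gm10639 carried upstream peaks at similar distances. Gm3776 had one of 21.1 (15.2 to 28.4) centred 812 bp upstream of its start site at chr9:78256217-78256417, and one of 14.7 (9.92 to 21) centred 1295 bp upstream. Each had 1 control tag. Gm10639 had one of 8.82 (5.23 to 13.9) centred 651 bp upstream at chr9:78289177-78289377, with 0 control tags. The nearest upstream peaks of the 3 genes thus lay between 651 and 812 bp from their start sites. The interval of Gsta1 overlapped those of both copies, whereas the intervals of Gm3776 and Gm10639 did not overlap each other. The promoter windows of these copies are near-identical, as described above, but likeness at the peaks was not measured. The part of read mapping in the difference between Gm3776 and Gm10639 was not tested. Its part in the presence of an upstream peak at each of the 3 genes was not tested either.

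Gsta2 differed in layout. Within 2000 bp upstream of its start site, where Gsta1 and Gm3776 had 2 peaks each and Gm10639 had 1, Gsta2 had none. Its nearest listed peak upstream lay 31593 bp away. That peak, of 21.6 (15.7 to 28.9) at chr9:78378638-78378838, had 44 BLRP-MafG tags against 2 control tags and a ratio of 18.6 (4.84 to 158). It stood 150 bp from Ooep, an oocyte gene, and is closer to that gene than to Gsta2. The only peak inside Gsta2, at chr9:78340445-78340645 and 6600 bp downstream of the start site, had a height of 5.88 (3.04 to 10.3) from 12 BLRP-MafG tags against 0 control tags. At that height it was among the lowest of the list, since 97.3% of listed peaks were at least as high. Gsta3 had no peak within 2000 bp upstream either. A start site without a listed peak may still hold signal below the caller's limits.

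**Figure D3:**
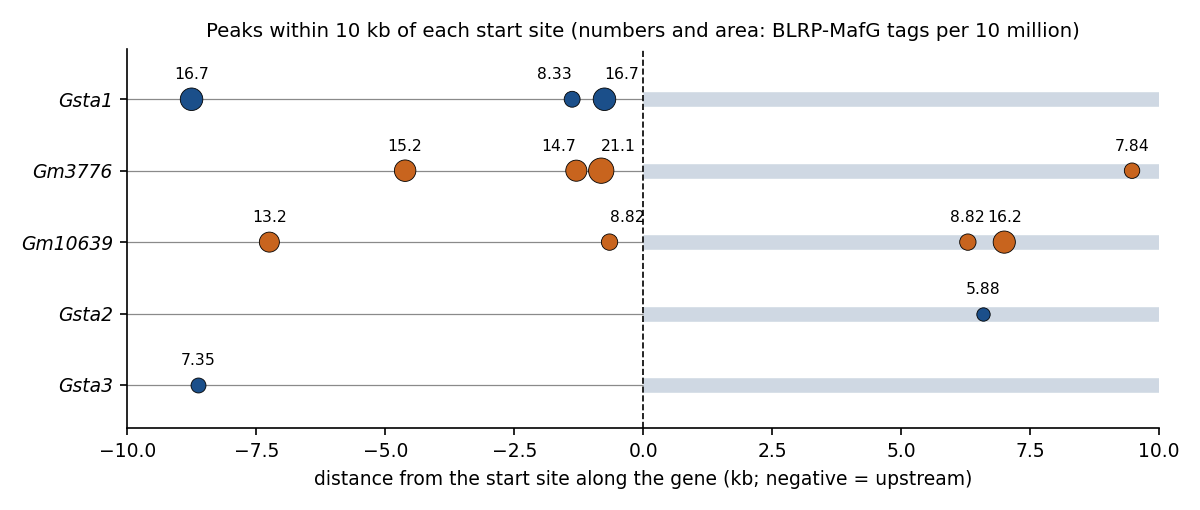
Listed peaks within 10 kb of the start sites of Gsta1, Gm3776, Gm10639, Gsta2 and Gsta3, by distance along each gene in kb (negative is upstream, shaded bars are the gene bodies), with circle area and printed numbers giving BLRP-MafG tags per 10000000. Gsta1, Gm3776 and Gm10639 have a peak between 651 and 812 bp upstream, and Gsta2 and Gsta3 have none there. Gsta4 had no promoter window and is not drawn.

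At Gsta4, the highest peak of the chromosome 9 group sat at one end of the gene. It lay at chr9:78191733-78191933, centred 133 bp outside the end with the lower coordinate. BLRP-MafG gave 61 tags, a height of 29.9 (22.9 to 38.4), against 1 control tag. The ratio was 51.5 (8.89 to 2065), or 17.2 against the floor of 3 control tags. Its fold over the surrounding 10 kb was 29.3 in the authors' deposited table, and 19.1% of all listed peaks were at least as high. Beyond the other end, a peak of 14.7 (9.92 to 21) lay 5398 bp away at chr9:78214647-78214847, with 2 control tags and a ratio of 12.7 (3.21 to 109). That peak lies inside Gm3126, which is not a protein-coding gene. No peak was listed inside Gsta4. On the side of the lower coordinate, peaks of 11.3, 7.35 and 5.88 lay 34703, 26921 and 16426 bp from Gsta4. Their nearest protein-coding gene is Cilk1, a kinase gene. The peaks of 11.3 and 7.35 lie inside Cilk1, and that of 5.88 lies inside Rn7sk, which is not protein-coding.

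The chromosome 9 genes stand so close that their windows share peaks. Gsta1 and Gsta4 had 8 peaks in common and Gsta1 and Gsta2 had 2. Among protein-coding genes, 6 of the 19 peaks there were closest to Gsta1, Gsta2 or Gsta4, 9 to Gm3776 or Gm10639, and 4 to Cilk1 or Ooep. The peaks closest to the copies and not yet named had heights of 15.2 (4615 bp upstream of Gm3776), 7.84 (inside Gm3776), 13.2 (9750 bp beyond Gm3776), 13.2 (7248 bp upstream of Gm10639), and 8.82 and 16.2 (both inside Gm10639). Between the last of these and the peak inside Gsta2 no peak was listed over 43613 bp. Heights on chromosome 9 ran from 5.88 to 29.9 with a median of 13.2, and 15 of the 19 lay within the quartiles of the whole list. By the authors' deposited table, these 19 peaks exceeded their surrounding 10 kb by a median of 8.94-fold, against 16.2-fold for the whole list.

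**Figure D4:**
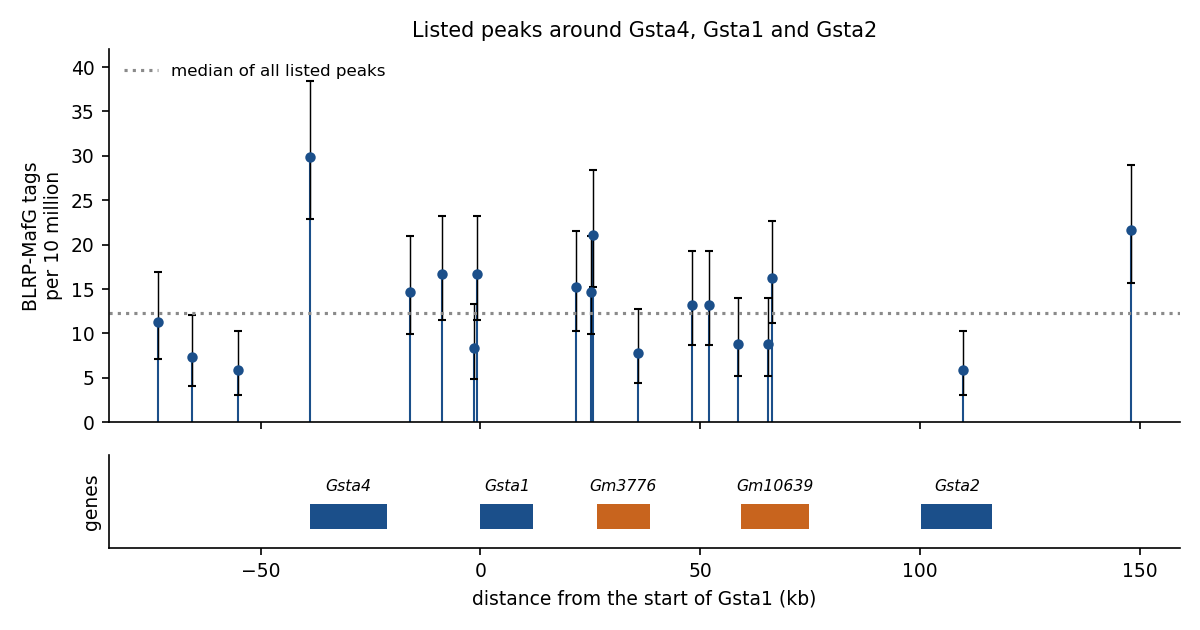
Height of the 19 listed peaks on chromosome 9 in BLRP-MafG tags per 10000000 (points with exact 95% counting intervals) against the distance from the start of Gsta1 in kb. Blue bars are Gsta4, Gsta1 and Gsta2 and orange bars are Gm3776 and Gm10639. The highest peak, of 29.9, stands at the edge of Gsta4, and a stretch without peaks separates Gm10639 from the low peak inside Gsta2.

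By number of peaks within 50 kb, Gsta1 had 12, Gsta4 had 11, Gsta2 had 6 and Gsta3 had 5, against a median of 5 over all protein-coding genes. At least as many were found at 5.61% of genes for Gsta1 and at 7.82% for Gsta4. For Gsta2 and Gsta3 the shares were 40.6% and 52.4%. The counts of Gsta1, Gsta4 and Gsta2 include peaks near the near-identical copies, so they share the uncertainty of read mapping given above. Gsta1 was the nearest protein-coding gene for only 3 of its 12 peaks and Gsta4 for 2 of its 11. For Gsta2 this held for 1 of 6 and for Gsta3 for 2 of 5. The order by height differed from that by number of peaks. Gsta3 came first at 184, Gsta1 and Gsta4 shared the peak of 29.9, and Gsta2 came last at 21.6, with an interval that overlapped theirs. Of all protein-coding genes, 6.31% had a highest peak within 50 kb at least as high as Gsta3, 55.3% one at least as high as Gsta1 and Gsta4, and 67.4% one at least as high as Gsta2. The shares depend on the window: that of Gsta3 was 2.73% at 10 kb and 10.4% at 100 kb, and that of Gsta4 was 28.3% at 10 kb and 72.2% at 100 kb. Within 10 kb the highest peaks were 184 for Gsta3, 29.9 for Gsta4, 16.7 for Gsta1 and 5.88 for Gsta2, and each of the 4 genes had one, as did 74.5% of protein-coding genes. The median gene had a highest peak of 33.8 within 50 kb and of 13.7 within 10 kb. Thus 1 of the 4 genes was above the median gene at 50 kb and 3 of 4 at 10 kb. Genes without a listed peak count as 0 in these medians, which lowers the median gene, more so at 10 kb. Within 10 kb, 45.2% of protein-coding genes had a highest peak at least as high as Gsta1. These are most of the 74.5% with a peak, so Gsta1 was below the median of those genes. Gsta3 and Gsta4, at 2.73% and 28.3%, were above it. A peak of 100 or more within 50 kb was found at 1 of the 4, Gsta3, against 16.4% of protein-coding genes.

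Peaks on either side of the 50 kb limit were as follows. For Gsta1, a peak of 8.82 lay just inside at 46594 bp and another of 8.82 just outside at 53543 bp. For Gsta2, both were 13.2, at 48338 and 52102 bp. For Gsta4, a peak of 21.1 lay inside at 46968 bp and one of 10.8 outside at 52277 bp. For Gsta3, a peak of 5.39 lay inside at 37340 bp and one of 29.9 outside at 53610 bp.

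Other genes of glutathione metabolism are set beside the alpha class as counts and medians only. The alpha class had a median highest peak within 50 kb of 29.9 over 4 genes, against 33.8 over all protein-coding genes. The mu class had 46.6 over 7 genes, and glutathione transferases of the other classes had 51 over 14 genes. The alpha-class median is the height of a single peak shared by Gsta1 and Gsta4. The mu-class median is likewise that of a single peak shared by several genes of that list. Glutathione synthesis and recycling genes had 59.8 over 11 genes, and NRF2 genes of other families had 24 over 10 genes. All genes of these lists had a listed peak within 50 kb. Within 10 kb the medians were 23.3 for the alpha class, 32.3 for the mu class, 20.3 for the other classes, 20.1 for glutathione synthesis and recycling, and 20.8 for the NRF2 list, against 13.7 over all protein-coding genes. The order of the lists thus changed with the window. Only 74.5% of protein-coding genes had a peak within 10 kb, and the others enter the 13.7 as 0. The lists hold almost no such genes, so their medians and the 13.7 are not on an equal footing. With a fold over control of at least 20, the alpha class had 29.9 and the other classes 27.6 within 50 kb. In that setting the mu class had 46.6, glutathione synthesis and recycling 59.8, and the NRF2 list 18.1. Cbr3, a carbonyl reductase gene, was the only gene of these lists without a peak within 10 kb.

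In 3 of the other 4 lists the highest value came from a peak outside the gene it was counted for. In the mu class, Gstm4 held a peak of 141 (125 to 158) inside it, 127 bp from one end, which Gstm1 shared from 27079 bp away. The interval of the Gsta3 peak, 166 to 203, lay above it. How alike the mu-class genes are was not measured here. Gstt3, a theta-class gene, had 157 (140 to 175) at 48466 bp. Ggct, which encodes an enzyme of glutathione breakdown, had 481 (451 to 512) at 21440 bp, against 13.2 within 10 kb. Hmox1, the haem oxygenase 1 gene, had 316 (292 to 341) at 9635 bp. No test was run between the lists, so none can be said to differ from the alpha class. Neighbouring genes also share peaks, and the lists hold few genes.

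**Figure D5:**
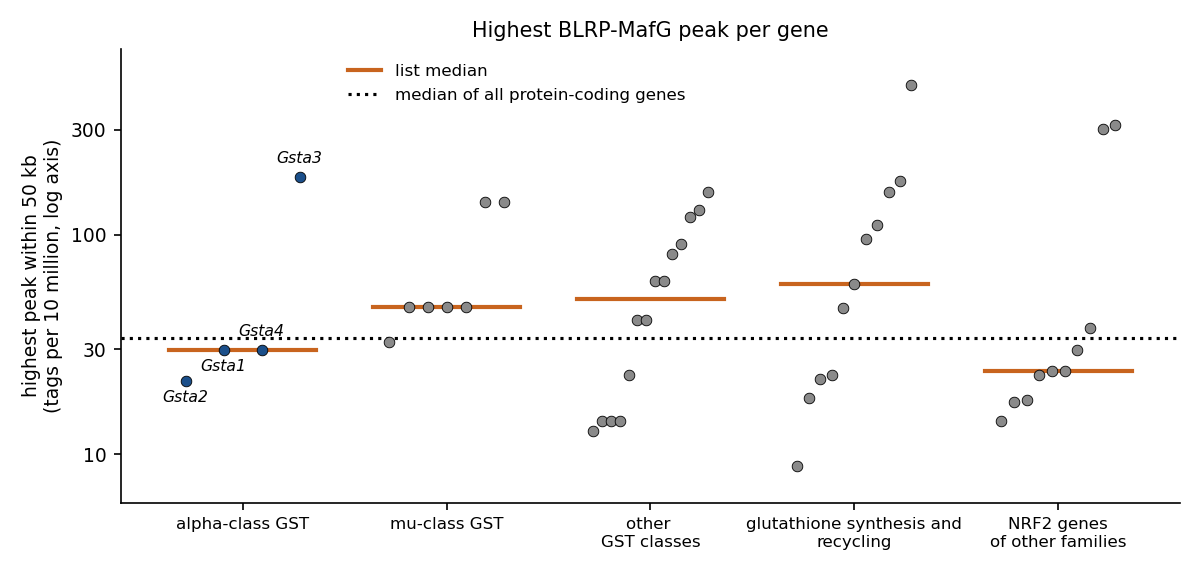
Highest BLRP-MafG peak within 50 kb of each gene in tags per 10000000 on a log axis, for the alpha-class genes (blue) and 4 other lists (grey). Orange lines are list medians and the dotted line is the median of all protein-coding genes, 33.8. Gsta3, at 184, is above this line, and Gsta1, Gsta2 and Gsta4 are below it.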

How the data were processed

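Chromatin immunoprecipitation sequencing was done on 2 BLRP-MafG and 2 BLRP control libraries. The submitters' processing notes name Bowtie2, HOMER and build mm10, without versions. Per the file headers, HOMER findPeaks called peaks of 200 bp, at least 400 bp apart, on 1 BLRP-MafG collection over 1 control collection, counting at most 1 tag per bp. A fold of 10 over control at a Poisson p-value of 1e-06 was required, and a fold of 4 over the surrounding 10 kb at a p-value of 0.0001. Whether both libraries of a group were joined is not stated, so replicates could not be compared.

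The deposited signal is the normalized tag count, scaled by the authors to 10000000 tags, and the unscaled control tags, with 0.5 for none. Deposited fold and ratio columns are linear, deposited p-values weigh tags, and the deposited score was not used. Times the stated total, all 68763 heights lay within 0.11 of whole tags, from which exact 95% Poisson (height) and conditional binomial (ratio) intervals were computed. With 0 control tags a floor of 3 tags over the collection was used. Intervals and floors cover counting error only.

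A peak belonged to a gene when its midpoint lay inside or within 50 kb of it. Genes and promoter windows are RefSeq, GRCm38.p6. Windows were aligned with Biopython 1.88 (free end gaps). Python 3.11.15, pandas 2.3.3 and SciPy 1.17.1 were used. The intervals, the assignment of peaks to genes and the motif search were tested on simulated data, and the other steps were not. Named are the 4 genes with all their peaks, the nearest genes, and in each other list the gene with the highest peak and any without one. Members and lists were chosen with earlier results of these data known. No test between groups was run, and the planned motif search in peaks was not run. Alternatives changed the window, fold, height, overlap rule, genes counted, ratio and motif.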

Additional observations from a re-analysis of the deposited data

How the results depend on the processing

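The number of peaks near the 4 genes followed the window and the limits set, with 9 peaks at 10 kb, 37 at 100 kb, 14 with a fold over control of at least 20 and 5 with a height of at least 20, against 24 as reported. At 10 kb the highest peak was 16.7 for Gsta1 and 5.88 for Gsta2, while that of Gsta3 and Gsta4 was the same. The share of protein-coding genes with a peak was 74.5% at 10 kb, 97.1% at 100 kb and 88.4% with a fold of at least 20, and it was 90.8% over all genes of the table. The number of the 4 genes above the median gene, 1 as reported, was 3 at 10 kb and also 3 with a fold of at least 20. In the last setting Gsta1 and Gsta4 passed narrowly and through the 1 peak they share, with 49.7% of genes at least as high. The number stayed at 1 at 100 kb, with any base of a peak counted, and, at 50 kb, among genes with a listed peak. That last restriction was not applied at 10 kb or with a fold of at least 20, where genes without a peak count as 0. At 10 kb, the 45.2% of genes at least as high as Gsta1 are most of the 74.5% with a peak. With a fold of at least 20, the 49.7% are most of the 88.4% with such a peak. Gsta1 in the first setting, and Gsta1 and Gsta4 in the second, were thus below the median of genes with a peak. The share of genes at least as high as Gsta3 ran from 2.73% at 10 kb to 10.4% at 100 kb. The median highest peak of the alpha class was 23.3 at 10 kb and 29.9 at 100 kb. That of the mu class was 32.3 at 10 kb and 141 at 100 kb, and that of the other classes 20.3 at 10 kb, 86 at 100 kb and 27.6 with a fold of at least 20. Requiring an A after the antioxidant response core lowered its share of promoter windows to 3.04%, and the Gsta3 match still held. Counting any base of a peak in place of its midpoint also gave 24 peaks. No paired analysis was possible because the list holds no value per library, and for that reason leaving out a replicate was not run. Depth limits most of these heights: in 19 of the 24 peaks, those of 11 to 34 tags, the upper limit of the interval was over 2 times the lower one.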
